A study of Homo sapiens with 6 samples.

Results

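CHI3L2, SEL1L3, CPNE5, CYB5A and SHISA9 are 5 genes whose mRNA was abundant in one human lymphoma B cell line, LY19Y646F, and close to absent in the other, LY19WT. For SHISA9 the abundance is that of the per-library values, while the authors' deposited table gives 3.55 FPKM in LY19Y646F. They are described here with 5 paralogs, CHI3L1, SEL1L, CPNE1, CPNE3 and CYB5B, as 10 of the 56584 gene symbols named in the tables of the 6 libraries. A gene's value was read from the row whose list of symbols contains it, and rows that carry further symbols are named as shared. The 5 genes were selected on their FPKM in LY19Y646F against LY19WT, the contrast described here, so their values are a description and carry no test. The paralogs were set beside them by family.

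Both lines are labelled as immortalized B cells of lymphoma, untreated and at passage 10 to 15. LY19Y646F cells express EZH2-Y646F constitutively from a CMV promoter, and LY19WT cells are labelled as wild type for EZH2, the methyltransferase subunit of Polycomb repressive complex 2. Each line gave 3 libraries of polyadenylated RNA, made with a strand-specific kit from 2500 ng of RNA and read for 85 bases from a single end. Whether LY19Y646F is a single clone, and whether the replicates came from separate cultures, is not given in the sources used here, so the p-values rest on the spread between libraries, which may be technical. EZH2 stood at 70.2, 80.4 and 93.5 FPKM in LY19Y646F and at 60.6, 76.5 and 74.7 FPKM in LY19WT (log2 difference 0.20, limma adjusted p = 0.38), and the tables do not separate mutant from native transcripts. In bulk RNA, a change in the share of cells that express a gene cannot be told apart from a change in its mRNA per cell.

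The genes belong to unrelated families. CHI3L2 is a secreted chitinase-like protein that binds chitin but is known to lack the catalytic activity of true chitinases, and CHI3L1 is its close relative. SEL1L3 is a membrane protein that shares Sel1-like repeats with SEL1L, the adaptor of the SYVN1 ubiquitin ligase that removes misfolded proteins from the endoplasmic reticulum. Copines such as CPNE5, CPNE1 and CPNE3 bind membrane phospholipids when calcium is raised. CYB5A is the cytochrome b5 of the endoplasmic reticulum, which hands electrons to lipid desaturases and sterol-modifying enzymes, and CYB5B is its counterpart on the outer mitochondrial membrane. SHISA9 is known, from rodent brain, as an auxiliary subunit of AMPA-type glutamate receptors.

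The start regions of these genes differ in their content of CpG, the dinucleotide that is dense in the promoters of many widely expressed genes. Windows of 300 bases, 250 before and 50 after an annotated start, were taken from the RefSeq promoter table (GRCh38.p14) for 8 of the 10 members and 4 of the 5 genes chosen for their difference. They are printed 5′ to 3′ on the gene's strand with every CpG in capitals, 1 window per gene, the one with most CpG where a gene has several. They lie at chr1:111227409-111227708 (plus strand) for CHI3L2, chr4:25862939-25863238 (minus strand) for SEL1L3, chr6:36839395-36839694 (minus strand) for CPNE5 and chr18:74291914-74292213 (minus strand) for CYB5A.
CHI3L2: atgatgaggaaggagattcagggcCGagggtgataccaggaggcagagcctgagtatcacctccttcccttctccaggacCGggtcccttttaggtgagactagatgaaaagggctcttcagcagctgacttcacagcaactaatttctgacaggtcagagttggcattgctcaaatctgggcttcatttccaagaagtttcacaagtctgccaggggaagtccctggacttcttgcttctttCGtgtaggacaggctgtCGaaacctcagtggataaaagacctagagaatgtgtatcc
SEL1L3: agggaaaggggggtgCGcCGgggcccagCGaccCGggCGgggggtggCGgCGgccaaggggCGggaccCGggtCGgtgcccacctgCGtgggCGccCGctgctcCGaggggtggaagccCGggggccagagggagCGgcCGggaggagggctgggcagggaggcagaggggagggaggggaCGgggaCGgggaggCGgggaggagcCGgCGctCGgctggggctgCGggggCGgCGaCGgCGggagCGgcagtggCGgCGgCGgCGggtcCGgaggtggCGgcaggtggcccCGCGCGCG
CPNE5: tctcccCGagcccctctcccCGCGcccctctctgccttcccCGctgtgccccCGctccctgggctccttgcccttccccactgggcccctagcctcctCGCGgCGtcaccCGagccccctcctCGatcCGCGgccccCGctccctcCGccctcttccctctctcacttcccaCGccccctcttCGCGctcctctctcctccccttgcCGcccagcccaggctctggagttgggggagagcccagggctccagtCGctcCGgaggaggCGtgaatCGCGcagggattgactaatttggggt
CYB5A: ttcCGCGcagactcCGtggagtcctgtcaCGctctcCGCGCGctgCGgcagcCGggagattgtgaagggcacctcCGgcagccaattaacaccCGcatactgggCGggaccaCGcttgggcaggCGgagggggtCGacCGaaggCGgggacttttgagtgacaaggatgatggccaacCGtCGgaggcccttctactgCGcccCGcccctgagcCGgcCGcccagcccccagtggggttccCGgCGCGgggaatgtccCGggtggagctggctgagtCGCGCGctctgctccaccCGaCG

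The CHI3L2 window holds 4 CpG, an observed over expected ratio of 0.217, and 23.7% of the 35116 windows in the table have a lower ratio. Its other annotated start, a little downstream, has 3. The printed windows of SEL1L3, CPNE5 and CYB5A hold 39, 23 and 32 CpG, against a median of 14 over all windows and 27 over those of the tested genes that have one. SEL1L3 and CPNE5 are shown at their start with most CpG, whereas the median of 14 covers every window. Among the 4 windows shown, that of CHI3L2 held the fewest CpG, and a relation between CpG content and level was not tested. Further starts of CPNE5 hold 8 and 4 CpG, and a further start of SEL1L3 holds 18. The expression tables do not say which start was used.

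The windows were also searched on both strands for the octamer of POU factors (ATGCAAAT), which occurs in 1.77% of all windows. Among the members it was found once, at the upstream end of the second SEL1L3 window (chr4:25863787-25863816, minus strand, GRCh38.p14), shown here with the motif in capitals.
SEL1L3 octamer: ggATGCAAATcaaatacaaacccgtcctgg
The match is a run of letters in 1 window and is given as a description only.

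CHI3L2 was the most abundant of the 5 and had the largest difference of all tested genes in the direction of LY19Y646F. Levels are in FPKM, sequenced fragments divided by transcript length and by the library's mapped total, a scale that allows genes to be compared per length. CHI3L2 (chr1:111743393-111786062, hg19) stood at 625, 612 and 599 FPKM in LY19Y646F replicates 1, 2 and 3, against 0.323, 0.914 and 0.732 FPKM in LY19WT. The 3 LY19Y646F libraries had a coefficient of variation of 2.17%, and the lines were 932 times apart in mean level, 612 ± 13.3 FPKM in LY19Y646F and 0.656 ± 0.302 FPKM in LY19WT (SD, n = 3 each). In LY19Y646F the gene ranked 123rd, 112th and 112th by level among 47611 symbols, and in LY19WT 10247th, 8869th and 9148th. The deposited confidence limits of Cufflinks spanned 582 to 647 FPKM over the LY19Y646F libraries, against 0 to 1.52 FPKM over the LY19WT libraries. In LY19Y646F replicate 3 the row was shared with the pseudogene CHIAP2, and gave the lowest of the 3 values.

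Of the other 6 chitinase-family genes, CHI3L1, CHIT1 and CHIA were low, CHID1 was expressed in both lines, and OVGP1 and CTBS could not be read. Genes that shared no row with another coding gene and averaged 0.5 FPKM or more entered a limma fit on log2(FPKM + 1). A gene is named as called where its Benjamini-Hochberg adjusted p was under 0.05. CHI3L1 was listed at 0 in all LY19Y646F libraries, and in LY19WT at 0 in replicates 1 and 3 and at 0.0191 FPKM in replicate 2. CHIT1, the active chitinase of macrophages, was listed at 1.46, 0.518 and 0 FPKM in LY19Y646F and at 0 in LY19WT. CHIA, the acidic chitinase encoded near CHI3L2, stood at 0.274, 0.372 and 0.179 FPKM in LY19Y646F and was listed at 0 in LY19WT. CHID1, a lysosomal and secreted member of the fold, was the only other one that entered the fit, and it was not called (log2 difference -0.07, 95% interval -0.86 to 0.72, limma adjusted p = 0.89). The OVGP1 and CTBS rows were shared with other coding genes and were not tested.

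**Figure D1:**
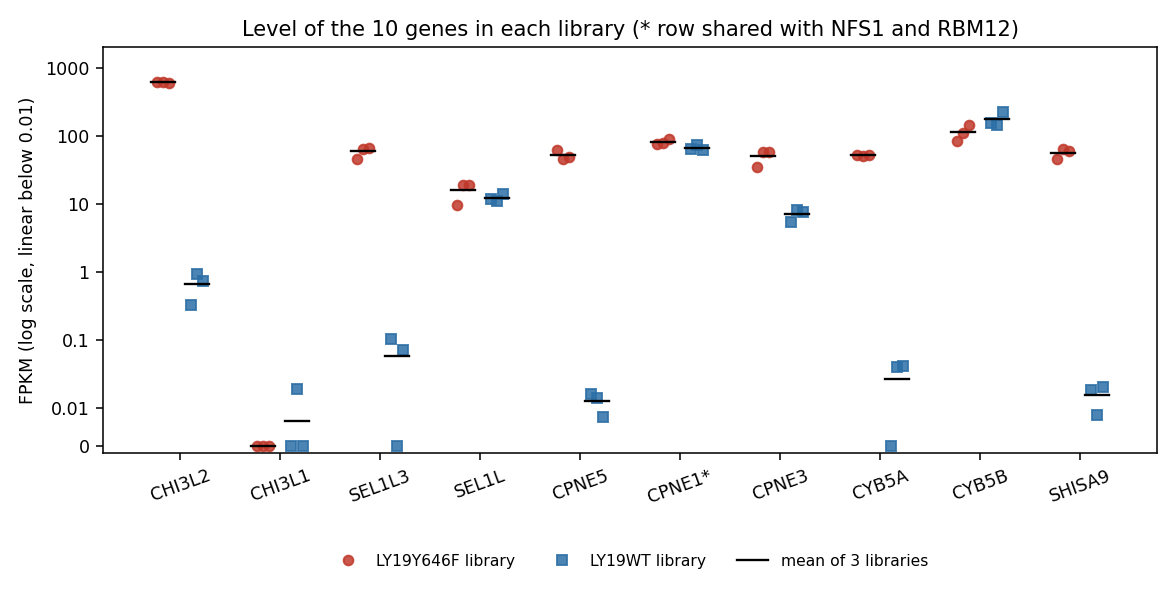
FPKM of the 10 genes in each library, on an axis that is logarithmic above 0.01 FPKM and linear below, with LY19Y646F circles left of LY19WT squares and a line at each mean of 3 libraries; the asterisk marks the CPNE1 row, shared with NFS1 and RBM12. CHI3L2, SEL1L3, CPNE5, CYB5A and SHISA9 lie between 45.1 and 625 FPKM in LY19Y646F and below 1 FPKM in LY19WT, while SEL1L, CPNE1 and CYB5B differ by less than 1 on the log2 scale.

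SEL1L3 (chr4:25749055-25865382, hg19) stood at 46.0, 64.2 and 66.4 FPKM in LY19Y646F, against 0.103, 0 and 0.0713 FPKM in LY19WT. The lower limit of the deposited interval was at 0 in every LY19WT library. In LY19Y646F replicate 2 the row was shared with the non-coding RP13-494C23.1. Other rows overlapping the locus summed to 65.2, 0.117 and 0.547 FPKM in LY19Y646F and to between 10.9 and 13.2 FPKM in LY19WT; in LY19Y646F replicate 1 and in LY19WT most of this was the neighbouring gene SMIM20.

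SEL1L itself stood at 9.67, 18.7 and 19.0 FPKM in LY19Y646F and at 11.7, 10.9 and 13.7 FPKM in LY19WT, so the lines overlapped. The log2 difference was 0.30 ± 0.28 (SE), with a 95% interval of -0.41 to 1.02 and a limma adjusted p of 0.46. LY19Y646F replicate 1 was the lowest of the 6 libraries, and without it the difference was 0.60 with a limma adjusted p of 0.026. Per length, SEL1L3 had the higher mean level of the pair in LY19Y646F, 58.9 ± 11.2 FPKM for SEL1L3 and 15.8 ± 5.32 FPKM for SEL1L (SD, n = 3).

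Among the other genes of endoplasmic-reticulum-associated degradation, 6 could be tested, counting SEL1L. None was called higher and 1 was called lower, where 16.7% of the 10673 tested genes were called higher and 16.6% lower. That gene was EDEM3, which trims mannose from misfolded glycoproteins. It stood at 7.46, 11.9 and 8.74 FPKM in LY19Y646F and at 15.4, 22.7 and 20.1 FPKM in LY19WT, groups that do not overlap, as was so for 48.6% of all tested genes. Its log2 difference was -0.98 (limma adjusted p = 0.023). Leaving out LY19Y646F replicate 1 or 3 ended the call (limma adjusted p = 0.051 and 0.077), and so did leaving out LY19WT replicate 2 or 3 (both 0.080). The lectins OS9 and ERLEC1, and also FAF2 and the VCP cofactor NPLOC4, were not called, with log2 differences between -0.02 and 0.35. For ERLEC1, the difference without LY19Y646F replicate 1 was 0.64 with a limma adjusted p of 0.017. SYVN1, DERL1, DERL2, VCP and 7 others could not be read because their rows were shared with other coding genes.

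CPNE5 (chr6:36708552-36807778, hg19) stood at 61.1, 45.3 and 49.0 FPKM in LY19Y646F, against 0.0160, 0.0140 and 0.00752 FPKM in LY19WT. Replicate 1 was the highest LY19Y646F library for CPNE5, whereas it was the lowest for SEL1L3 and SHISA9. Every row carried CPNE5 alone. Rows without a gene name overlapped this locus in LY19Y646F only, with 3.83, 24.9 and 13.2 FPKM summed in replicates 1, 2 and 3. The overlap is by position alone, and whether these rows hold transcripts of CPNE5 was not tested. The mean levels were 51.8 ± 8.28 FPKM in LY19Y646F and 0.0125 ± 0.00444 FPKM in LY19WT (SD, n = 3 each).

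The other copines differed between the lines in both directions. CPNE3, a broadly expressed copine, rose: it stood at 34.9, 58.4 and 57.2 FPKM in LY19Y646F and at 5.31, 8.05 and 7.63 FPKM in LY19WT. Its log2 difference was 2.66 ± 0.26 (SE), with a 95% interval of 2.0 to 3.32 and a limma adjusted p of 0.0012. CPNE2 fell to 0.153, 0.243 and 0.131 FPKM in LY19Y646F, against 59.6, 68.0 and 51.5 FPKM in LY19WT (log2 difference -5.68, limma adjusted p = 2.08e-05). CPNE7 fell to 1.01, 0.622 and 1.39 FPKM in LY19Y646F, against 26.7, 24.9 and 25.1 FPKM in LY19WT (log2 difference -3.74, limma adjusted p = 7.73e-05). Of the 3 copines tested, 1 was thus called higher and 2 were called lower, beside the 16.7% and 16.6% of all tested genes.

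CPNE4, CPNE6 and CPNE8 were at or near 0 in both lines. The summed level of the 7 copines with rows of their own was 103 ± 5.40 FPKM in LY19Y646F and 92.3 ± 8.35 FPKM in LY19WT (SD, n = 3 each). In LY19Y646F, CPNE5 made up 50.5 ± 10.7% of that sum and CPNE3 48.3 ± 10.8%. In LY19WT, CPNE2 made up 64.5 ± 3.15%, CPNE7 27.9 ± 2.81% and CPNE3 7.61 ± 1.67% (SD, n = 3 each). Both the sum and the shares include CPNE5, which was chosen for its difference, and leave out CPNE1 and CPNE9, whose rows were shared with other coding genes in 1 or more libraries.

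**Figure D2:**
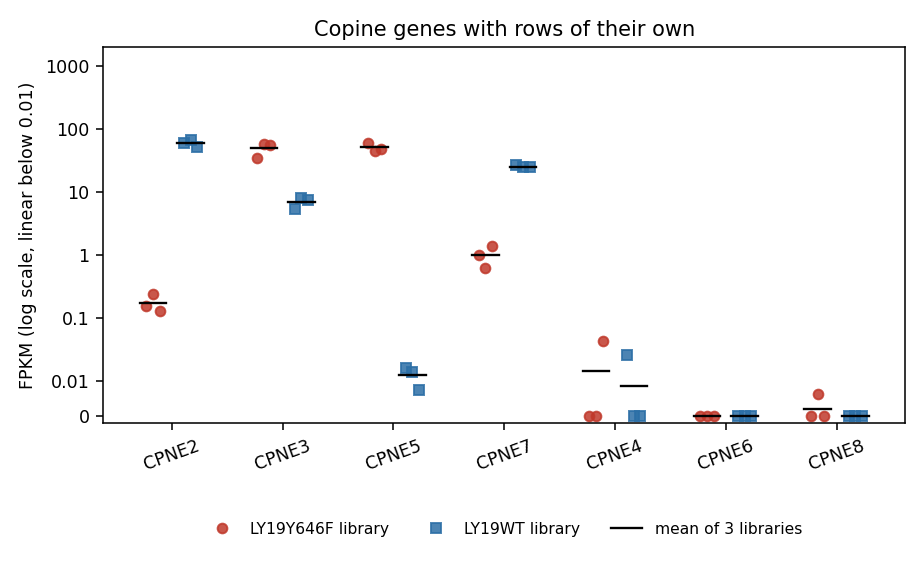
FPKM of the 7 copine genes with rows of their own in each library, on an axis that is logarithmic above 0.01 FPKM and linear below, with LY19Y646F circles left of LY19WT squares and a line at each mean of 3 libraries. CPNE3 and CPNE5 lie higher in LY19Y646F, CPNE2 and CPNE7 lie lower, and CPNE4, CPNE6 and CPNE8 lie at or near 0 in both lines.

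CPNE1 could not be separated from its neighbours. In all 6 libraries its row was shared with NFS1, RBM12 and RP1-309K20.6 (chr20:34213953-34287281 in LY19Y646F replicate 3, hg19). The shared row stood at 76.3, 78.9 and 89.0 FPKM in LY19Y646F and at 63.6, 74.0 and 62.8 FPKM in LY19WT. When such rows were fitted for every gene they name, its log2 difference was 0.28 with a limma adjusted p of 0.15, a value that belongs to the row and not to CPNE1. That fit called 26.2% of its genes, 13.2% higher and 13.0% lower.

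CYB5A (chr18:71920530-71959251, hg19) was the steadiest of the 5 after CHI3L2. It stood at 51.9, 50.1 and 52.5 FPKM in LY19Y646F, a coefficient of variation of 2.41%, against 0, 0.0394 and 0.0406 FPKM in LY19WT. It had a row of its own in every library, and no other row overlapped that locus. The deposited intervals reached from 47.2 to 55.8 FPKM over the LY19Y646F libraries and from 0 to 0.246 FPKM over the LY19WT libraries.

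CYB5B was the predominant cytochrome b5 in both lines. It stood at 83.6, 110 and 143 FPKM in LY19Y646F and at 153, 146 and 224 FPKM in LY19WT, in rows shared with the non-coding RP11-140H17.1. The lines did not overlap, beside 48.6% of all tested genes. The log2 difference was -0.64 with a 95% interval of -1.30 to 0.03 and a limma adjusted p of 0.13; with the replicate number as a block the adjusted p was 0.032. CYB5A made up 32.2 ± 5.79% of the CYB5A and CYB5B sum in LY19Y646F (SD, n = 3) and 0 to 0.0269% in LY19WT. The sum itself was 164 ± 30.1 FPKM in LY19Y646F and 175 ± 43.4 FPKM in LY19WT (SD, n = 3 each), a difference smaller than the SD of either line.

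Genes that work with cytochrome b5 moved in both directions. CYB5R4, a reductase with a cytochrome b5 domain of its own, rose to 76.5, 70.6 and 71.1 FPKM in LY19Y646F, against 28.98, 32.4 and 39.7 FPKM in LY19WT (log2 difference 1.10, limma adjusted p = 0.0028). SC5D, a desaturase of cholesterol synthesis, rose to 25.5, 34.6 and 35.0 FPKM in LY19Y646F, against 12.5, 14.7 and 14.5 FPKM in LY19WT (1.12, adjusted p = 0.0046 by limma). MSMO1, the methylsterol oxidase of the same route, rose to 47.3, 56.4 and 57.3 FPKM in LY19Y646F, against 35.0, 35.7 and 35.8 FPKM in LY19WT (0.58, adjusted p = 0.011 by limma).

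SCD5, a stearoyl-CoA desaturase, fell to 0.663, 0.631 and 0.164 FPKM in LY19Y646F, against 4.2, 7.26 and 4.72 FPKM in LY19WT (log2 difference -2.09, limma adjusted p = 0.0024). FADS3, a fatty acid desaturase family member, stood at 17.9, 6.51 and 6.79 FPKM in LY19Y646F and at 30.6, 21.0 and 15.3 FPKM in LY19WT. Its log2 difference of -1.12 was not called (limma adjusted p = 0.12); the adjusted p was 0.031 with the replicate block and 0.024 without LY19Y646F replicate 1. POR, the reductase that feeds microsomal monooxygenases, was listed at 0 in all LY19Y646F libraries and in LY19WT replicate 2, and at 20.7 and 20.9 FPKM in LY19WT replicates 1 and 3. It was not called (limma adjusted p = 0.14), but without LY19WT replicate 2 the limma adjusted p was 0.00071. The POR difference rests on values listed at 0, which occurred in both lines. Whether these mark absent transcripts or the way rows were assigned was not tested. SCD, FADS1, FADS2, CYB5R1, CYB5R2 and CYB5R3 sat in rows shared with other coding genes and were not tested.

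SHISA9 (chr16:12995477-13334272 in the LY19WT libraries, hg19) stood at 45.1, 64.2 and 60.6 FPKM in LY19Y646F, against 0.0183, 0.00796 and 0.0199 FPKM in LY19WT. The LY19Y646F values are less secure than those of the other 4 genes. In replicates 1 and 3 the row was shared with the non-coding U91319.1 and reached to position 13656775, and the deposited interval of replicate 1 ran from 10.3 to 79.9 FPKM. Replicate 2, in which SHISA9 had a row of its own, stood at 64.2 FPKM with an interval of 61.3 to 67.1 FPKM. In the authors' deposited table the gene stood at 3.55 FPKM in LY19Y646F and 0.00109 FPKM in LY19WT, over a locus of 661 kb, as long as the rows of LY19Y646F replicates 1 and 3. The mean of the 3 LY19Y646F libraries was 16.0 times the value in the authors' deposited table, and the cause was not tested.

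The genes of its partners in neurons were low. Of 12 genes for AMPA receptor subunits and their auxiliary proteins with rows of their own, 11 were below the filter, and CNIH3, a trafficking partner, was not called (log2 difference -0.50, limma adjusted p = 0.62). Of the other SHISA genes, SHISA3 fell to 0, 0 and 0.0102 FPKM in LY19Y646F, against 2.15, 1.77 and 1.86 FPKM in LY19WT (log2 difference -1.54, limma adjusted p = 0.00053). SHISA2, SHISA6, SHISA7 and SHISA8 were below the filter, and SHISA4 and SHISA5 sat in rows shared with other coding genes.

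**Figure D3:**
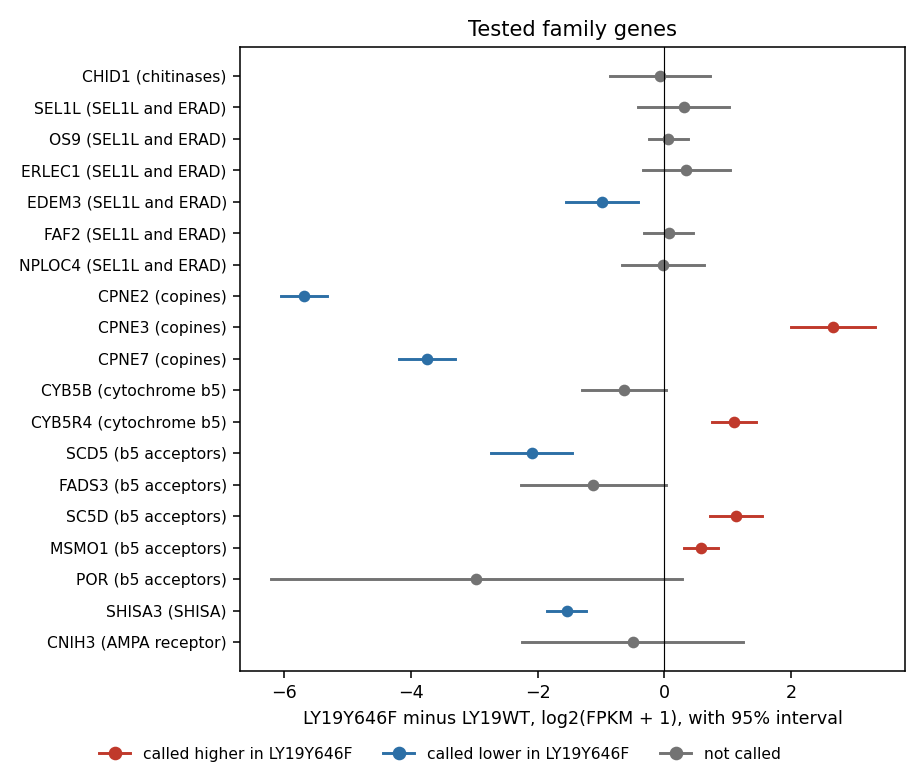
LY19Y646F minus LY19WT difference in log2(FPKM + 1) for the 19 tested family genes, with 95% intervals from limma. Of these, 4 lie to the right with a call (CPNE3, CYB5R4, SC5D and MSMO1), 5 lie to the left with a call (CPNE2, CPNE7, SCD5, SHISA3 and EDEM3), and 10 have no call.

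Over all family lists together, 9 of 19 tested genes were called, 4 higher and 5 lower, beside 33.3% of all 10673 tested genes. The 5 genes chosen for their difference are not in that count. The authors' deposited table, which comes from a joint Cuffdiff run, lists 6 of the 10 members. It gives CHI3L2 at 542 FPKM in LY19Y646F and 0.596 FPKM in LY19WT, and SEL1L3 at 95.1 FPKM in LY19Y646F and 0.0620 FPKM in LY19WT. CYB5A stood at 59.6 FPKM in LY19Y646F and 0.0302 FPKM in LY19WT in the authors' deposited table, and CPNE3 at 53.9 FPKM in LY19Y646F and 9.27 FPKM in LY19WT. In the authors' deposited table SEL1L stood at 26.9 FPKM in LY19Y646F and 19.7 FPKM in LY19WT. There the loci of CHI3L2, SEL1L3 and CPNE3 span 128, 282 and 432 kb, longer than their rows in the libraries. The SEL1L3 value in LY19Y646F lies above its library mean of 58.9 FPKM. CPNE5 was not read from the authors' deposited table.

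Ordered by LY19Y646F minus LY19WT on the log2(FPKM + 1) scale, highest first, CHI3L2 ranked 1st of 10673 genes at 8.55, and the other 4 followed each other closely. SHISA9 ranked 15th at 5.81, SEL1L3 16th at 5.81, CPNE5 17th at 5.69 and CYB5A 18th at 5.68. The next genes down, MTCH2 at 5.64 and HMGN1P37 at 5.62, lie just outside without a gap. Because LY19WT levels were close to 0, these differences on the log2(FPKM + 1) scale mainly reflect the level in LY19Y646F. The rank of SHISA9 therefore rests on library values whose mean was 16.0 times the 3.55 FPKM of the authors' deposited table. CPNE3 ranked 300th at 2.66.

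**Figure D4:**
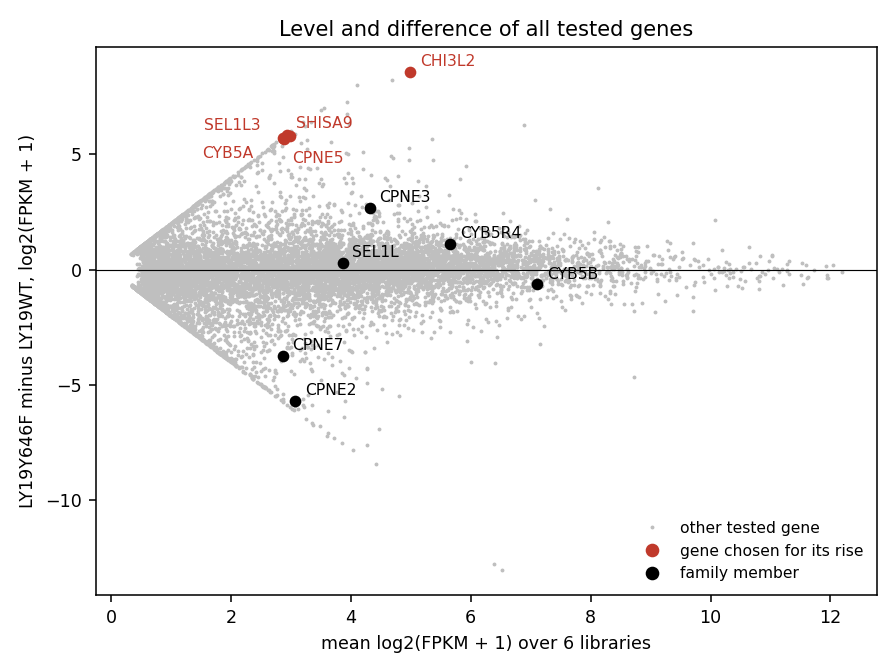
Mean log2(FPKM + 1) over the 6 libraries (horizontal) against the LY19Y646F minus LY19WT difference (vertical) for the 10673 tested genes, with the 5 chosen genes in red and CPNE3, SEL1L, CYB5B, CYB5R4, CPNE2 and CPNE7 in black. CHI3L2 is the topmost point at 8.55, SHISA9, SEL1L3, CPNE5 and CYB5A lie together between 5.68 and 5.81 on the upper edge, where LY19WT levels are near 0, and CPNE2 lies at -5.68.

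Within LY19Y646F the 5 genes did not vary together. Replicate 1 lay below the mean of the other 2 LY19Y646F libraries by 0.50 for SEL1L3 and 0.46 for SHISA9 on the log2 scale, and also by 0.90 for SEL1L, 0.71 for CPNE3 and 0.58 for CYB5B. For CPNE5 it lay above by 0.37, and for CHI3L2 and CYB5A it differed by 0.05 and 0.02. Over all tested genes the median of this deviation was -0.06, with quartiles of -0.34 and 0.32. SEL1L3, SHISA9, SEL1L, CPNE3 and CYB5B therefore lay below the lower quartile in replicate 1, and CPNE5 above the upper.

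For each of the 5 genes, the 3 genes with the most similar pattern were found by the root mean square difference of centred log2(FPKM + 1) over the 6 libraries. SEL1L3 and SHISA9 were each other's closest match among the 5, at 0.0541, and CPNE5 and CYB5A came next at 0.120. Every match of SHISA9 rests on its library values, which lie far above the authors' deposited value. Both SEL1L3 and SHISA9 were followed by ECI2, an enoyl-CoA isomerase, at 0.125 and 0.114, and by PRKAR2B, a regulatory subunit of protein kinase A, at 0.151 and 0.141. ECI2 was listed at 0 in all LY19WT libraries, whereas the authors' deposited table gives it 29.5 FPKM in LY19WT, so its place rests on values listed at 0. PRKAR2B stood at 70.5, 96.4 and 90.7 FPKM in LY19Y646F and at 0.870, 0.859 and 0.851 FPKM in LY19WT. The third places went to the non-coding RP11-640N20.6 for SEL1L3 (0.214) and to CCDC85A for SHISA9 (0.210).

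CPNE5 and CYB5A were both closest to MTAP, the phosphorylase of methylthioadenosine, at 0.102 and 0.0469. MTAP stood at 50.3, 45.3 and 49.5 FPKM in LY19Y646F and below 0.01 FPKM in each LY19WT library. HVCN1, a voltage-gated proton channel of B cells, followed for CPNE5 at 0.144, and LY86, the secreted partner of CD180, followed for CYB5A at 0.135. CTB-118N6.1 (0.194) and CCDC85A (0.164) took the third places. CHI3L2 had no neighbour as close: IGJ, the joining chain of polymeric immunoglobulins, came first at 0.254, then MGST1, a microsomal glutathione transferase, at 0.492, and the transcription factor IRF8 at 0.724. IGJ stood at 356, 518 and 468 FPKM in LY19Y646F and at 0.252, 0.529 and 0.689 FPKM in LY19WT. With 6 libraries in 2 lines, such likeness mostly reflects the gap between the lines.

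The 5 nearest tested genes on each side of each gene were examined, on the hg19 positions of the files. Of these 50 neighbours, 24 (48.0%) were called, 15 higher and 9 lower, beside 33.3% of all tested genes. Around CYB5A, 5 of 10 were called higher and 1 lower, and around SHISA9, 6 were called higher and none lower. The SHISA9 count includes CPPED1 and the non-coding CTD-2583P5.3. Both have a locus of 151 kb in the authors' deposited table, so their calls may not be separate. The same limit applies beside CPNE5 to PPIL1 and C6orf89 (both 76.9 kb), called higher, and to STK38 and ETV7 (both 195 kb), called lower. CHI3L2 itself has the same locus length there as CEPT1 and DRAM2 (128 kb), and SEL1L3 the same as SMIM20 (282 kb). Around CHI3L2 the counts were 1 higher and 3 lower, around SEL1L3 1 and 2, and around CPNE5 2 and 3. The genes examined lay up to 11727 kb away. On the whole chromosomes, 24.1% of tested genes were called higher and 19.5% lower on chromosome 18 (CYB5A), and 12.6% higher and 12.2% lower on chromosome 16 (SHISA9). The shares were 16.0% higher and 17.6% lower on chromosome 1 (CHI3L2), 13.3% higher and 27.0% lower on chromosome 4 (SEL1L3), and 16.6% higher and 20.8% lower on chromosome 6 (CPNE5).

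Next to CYB5A, TIMM21, a mitochondrial import protein 94.3 kb away, rose to 84.0 ± 15.2 FPKM in LY19Y646F, against 16.6 ± 2.15 FPKM in LY19WT (SD, n = 3 each; log2 difference 2.26, limma adjusted p = 0.00049). CNDP2, a dipeptidase on the other side, rose to 124 ± 33.7 FPKM in LY19Y646F, against 25.7 ± 6.05 FPKM in LY19WT (2.22, limma adjusted p = 0.0022). FBXO15 (2.12), ZNF407 (0.93) and TMX3 (1.63), the last 5538 kb away, were also called higher, and ZADH2 (-1.32) lower, as log2 differences. The ZNF407 call was lost without LY19Y646F replicate 2 or 3 or LY19WT replicate 2, at limma adjusted p of 0.053 to 0.062.

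Next to SHISA9, CPPED1, a phosphatase 97.6 kb away, rose to 8.68 ± 1.12 FPKM in LY19Y646F, against 0.968 ± 0.112 FPKM in LY19WT (SD, n = 3 each; log2 difference 2.29, limma adjusted p = 0.00020). PLA2G10, a secreted phospholipase (1.33), and the non-coding CTD-2583P5.3 (1.66) and RP11-65J21.3 (2.35) were also called higher, as log2 differences. PARN, a poly(A) ribonuclease (0.84), and RP11-166B2.1 (0.98) were called too. PARN lost its call without LY19Y646F replicate 2 or LY19WT replicate 3 (limma adjusted p 0.055 and 0.051). RP11-166B2.1 lost it with the replicate block (0.059) and without LY19Y646F replicate 2 or 3 or LY19WT replicate 2 or 3 (0.058 to 0.064), all limma adjusted p.

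The called neighbours of the other 3 genes gave no common direction. Beside CHI3L2, CEPT1 and DRAM2 were not called, and their LY19Y646F libraries varied widely (19.9 ± 18.5 and 26.4 ± 23.6 FPKM, SD, n = 3). The authors' deposited table lists both higher in LY19Y646F, CEPT1 at 60.4 FPKM against 27.2 and DRAM2 at 57.3 against 31.3 in LY19WT. SMIM20, beside SEL1L3, was not called either, at 21.7 ± 37.6 FPKM in LY19Y646F (SD, n = 3). That table lists it at 71.1 FPKM in LY19Y646F and 14.6 FPKM in LY19WT. Next to CHI3L2, MOV10, an RNA helicase (-4.01), LRIF1 (-3.84) and CTTNBP2NL (-1.15) were called lower, and CD53, a tetraspanin of leukocytes (0.96), higher, as log2 differences. The CD53 call was lost when any library but LY19Y646F replicate 1 was left out (limma adjusted p 0.058 to 0.10). On either side of SEL1L3, where tested genes are sparse, PI4K2B (-1.73, 468 kb away) and ARAP2 (-0.50, 10085 kb away) were called lower and RELL1 (0.72, 11727 kb away) higher. The ARAP2 call was lost without any 1 of the 6 libraries (limma adjusted p 0.051 to 0.11). Next to CPNE5, the splicing factor SRSF3 (-0.71), the kinase STK38 (-1.35) and the ETS factor ETV7 (-2.66) were called lower, and PPIL1 (0.55) and C6orf89 (1.26) higher. The C6orf89 call was lost without any 1 of the LY19WT libraries (limma adjusted p 0.059 to 0.071).

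**Figure D5:**
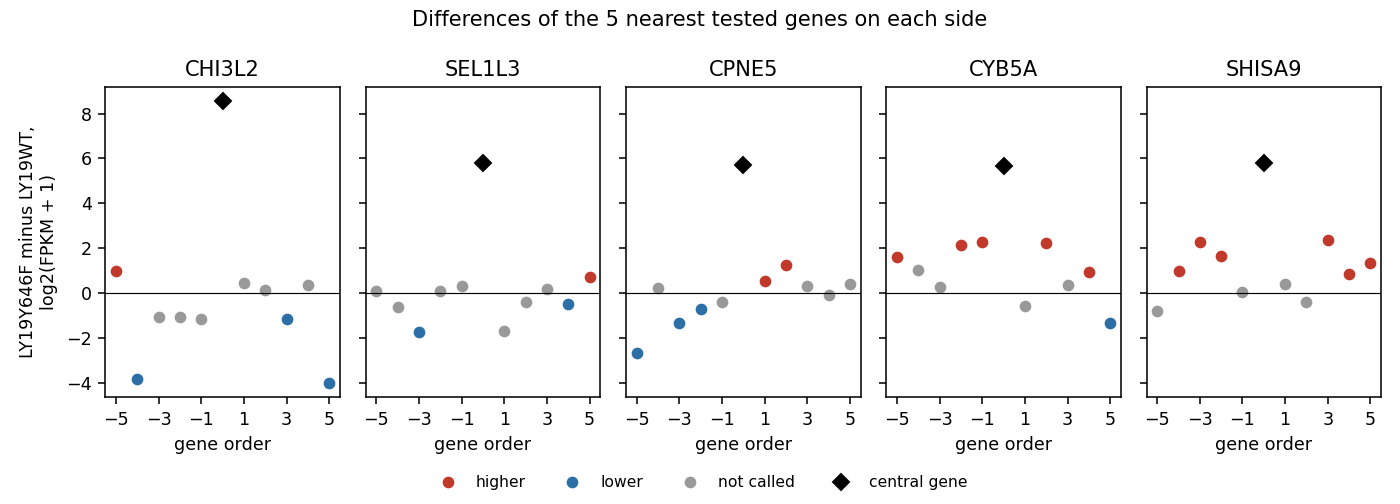
LY19Y646F minus LY19WT difference in log2(FPKM + 1) of the 5 nearest tested genes on each side of CHI3L2, SEL1L3, CPNE5, CYB5A and SHISA9, a panel each, by order along the chromosome, with the central gene as a diamond, red for called higher, blue for called lower and grey for not called. The CYB5A and SHISA9 panels hold 11 of the 15 genes called higher, and the CHI3L2, SEL1L3 and CPNE5 panels hold 8 of the 9 called lower.

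Marker lists place both lines in the B lineage, with differences that run alongside the 5 genes. Of the mature B cell markers, 7 of 10 had rows of their own, summing to 409 to 784 FPKM in LY19Y646F and 225 to 358 FPKM in LY19WT. The kinase BLK stood at 34.3, 26.4 and 25.6 FPKM in LY19Y646F and at 0.0362, 0.00904 and 0 FPKM in LY19WT. The precursor B cell markers, 5 of 7 in rows of their own, summed to 82.4 to 86.5 FPKM in LY19Y646F and 412 to 612 FPKM in LY19WT. In LY19Y646F nearly all of that sum was MME, a surface peptidase of early B cells, which stood at 84.1, 81.5 and 84.6 FPKM in LY19Y646F and at 46.1, 74.3 and 48.3 FPKM in LY19WT and was not called (limma adjusted p = 0.076). DNTT, the terminal transferase of immature lymphocytes, stood at 0.0481, 0.0816 and 0.0814 FPKM in LY19Y646F and at 90.7, 170 and 99.7 FPKM in LY19WT. The plasma cell markers, 3 of 6, summed to 24.1 to 28.0 FPKM in LY19Y646F and 153 to 170 FPKM in LY19WT. XBP1 made up most of both sums. The rest had rows shared with other coding genes and were not tested. Of these, IRF4 and TNFRSF17 went the other way, averaging 12.3 and 12.4 FPKM in LY19Y646F and 0.295 and 0.0129 FPKM in LY19WT. MZB1 overlapped between the lines.

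Markers of other cell types were low. The 8 T and NK cell markers summed to 1.76 to 2.10 FPKM in LY19Y646F and 0.652 to 1.13 FPKM in LY19WT, and the fibroblast and epithelial markers to at most 0.297 FPKM in LY19Y646F and 0.840 FPKM in LY19WT. The monocyte and macrophage markers, 7 of 9, summed to 0.374 to 0.723 FPKM in LY19Y646F and 11.3 to 13.9 FPKM in LY19WT, most of it LYZ, while MARCO, S100A8 and S100A9 were listed at 0 in all 6 libraries. The part of B cell stage in the members' differences was not tested. Summed FPKM per library ranged from 806102 to 1020940, and the 10 highest rows held 27.5% of it in LY19WT replicate 3 and 5.71% to 9.38% in the other libraries.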

How the data were processed

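RNA of 3 LY19Y646F and 3 LY19WT libraries was measured, grouped by the sample titles. The submitters' processing notes name the aligner STAR (2.5.3a), the quantifiers Cufflinks (2.2.1) and Cuffdiff (2.2.1), and the hg19 build. The authors deposited a table of FPKM with confidence limits per library, and a Cuffdiff table with mean FPKM and a log2 fold change per gene. Loci were assembled in each library separately, so a gene can share a row in one library and not in another. FPKM are already scaled to each library's total, so depth is unknown. The only intervals per library are the deposited ones, and precision in the tests comes from 3 replicates in each line.

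Rows were joined by symbol. A gene took its value from a row with no second protein-coding symbol, which left out 8973 of 56584 symbols in merged or failed rows. Genes averaging at least 0.5 FPKM were fitted on the log2(FPKM + 1) scale by limma (version 3.58.1, R 4.3.3; trend, two-sided, Benjamini-Hochberg adjustment over all 10673 genes, threshold 0.05). This called 3551 genes, 1783 higher and 1768 lower in LY19Y646F. Changes of low genes are understated on this scale. Named were the members, listed family genes above the filter, the 3 genes most alike in pattern and called neighbours. The members and lists were chosen with earlier results of these data known.

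The labels do not say what a replicate number stands for. Deviations from the line means correlated across genes by 0.28, 0.11 and 0.14 for replicates 1, 2 and 3 of both lines. Each was over the 0.1 set for pairing, replicate 2 only just. The blocked fit is therefore given where it changes the call of a member, a tested family gene or a called neighbour. Alternatives were the pseudocount, the filter, quantile scaling, the rows used, the replicate block and leaving out each library.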

Additional observations from a re-analysis of the deposited data

How the results depend on the processing

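Across the alternatives, the number of called genes lay between 2776 and 4533 against 3551 as reported, and no result reversed with a call. Counting every row that names a gene raised the family genes called to 16 of 45 (6 higher, 10 lower), where 26.2% of 17320 genes were called. Merged rows then count for several genes at once. With a pseudocount of 0.1 the median difference of CHI3L2, SEL1L3, CPNE5, CYB5A and SHISA9 was 8.84 on the log2 scale, against 5.81 with 1, because LY19WT levels are near 0. Leaving out each library gave medians of 5.73 to 5.96, 8 to 11 family genes and 19 to 27 neighbours called. With the replicate block 3868 genes and 11 family genes were called. Among the members, tested family genes and called neighbours it changed the calls of CYB5B, FADS3 and RP11-166B2.1 and of no other. Of the 24 called neighbours, 18 kept the call without any 1 library. The ARAP2 call was also lost under quantile scaling (log2 difference -0.23, limma adjusted p = 0.35), with no filter (0.11) and with every row (0.085), and the CD53 call with no filter (0.052). Read depth is unknown. The deposited lower limits of SEL1L3, CPNE5, CYB5A and SHISA9 were at 0 in all LY19WT libraries, so expression there cannot be told from none; those of CHI3L2 were 0.312 and 0.111 FPKM in LY19WT replicates 2 and 3.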
